A study of Mus musculus with 30 samples.

Results

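The transcripts described here are those whose signal in the embryonic mouse ovary of 16.5 days post coitum (dpc) lay on 1 side of both neighbouring ages of the time course, 14.5 and 18.5 dpc. A probe set, the group of oligonucleotide probes that reports 1 transcript, was a member when both 16.5 dpc samples were above, or both below, all 4 samples of 14.5 and 18.5 dpc on the same array type. Of 24825 probe sets tested, 2281 (9.19%) had both 16.5 dpc samples above and 2216 (8.93%) had both below, so 4497 (18.1%) were members. Those shares come from the order of the samples alone, with no test. The material was total RNA of pooled embryonic ovaries from mice of a mixed BL/6-129 background, extracted with TRIzol, with no treatment or engineered allele named in the labels. Each age had 2 numbered samples, and each number had an array of Affymetrix types A, B and C, so 16.5 dpc gave 6 arrays and its neighbours 12 of the series' 30. The other ages were 11.5 and 12.5 dpc. Nothing in the labels shows that both samples of an age are separate pools. P-values therefore measure only the spread between the samples at hand, and that spread may be technical.

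Female germ cells of the mouse enter meiosis in the fetal ovary and shut down the pluripotency genes that they carried as primordial germ cells. They pass through leptotene, zygotene and pachytene in nests of joined oocytes, surrounded by pregranulosa cells and stroma. Towards birth the oocytes reach the diplotene arrest, the nests break apart and genes of the growing oocyte are switched on. In RNA of a whole ovary, fewer cells of a type and less RNA per cell cannot be told apart.

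The values were signal intensities scaled by the authors to a mean of 125 on every array, analysed as log2(signal + 16). On that scale the paired 16.5 dpc samples had a correlation across probe sets of 0.966 for array type A, 0.901 for type B and 0.856 for type C. Between 52.6% and 60.8% of probe sets reached a signal of 50 on the 16.5 dpc arrays, against 51.4% to 63.0% on the neighbours. The ratio of 3 prime to 5 prime Gapdh signal, a measure of RNA integrity, was 0.917 and 1.09 at 16.5 dpc, within or just beyond the neighbours' 0.885 to 1.08. Ovarian somatic cells were visible in Foxl2, the granulosa lineage factor, at 792.5 and 858.4. Germ cells were visible in Ddx4, at 274.8 and 294.3. Among markers of the testis list, Dmrt1 was near the bottom of the scale at 4.1 and 2.9. The probe set for Sox9, a family-type set, read 521.1 and 477.0 against 505.3 to 822.2 in the neighbours. The 8 tested genes of that list summed to 1594 and 1779 at 16.5 dpc, against 1950 to 3286 in the neighbours.

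The test set 16.5 dpc against the mean of 14.5 and 18.5 dpc, with limma over all 10 arrays of a type and Benjamini-Hochberg adjustment over the 3 types together. At an adjusted p under 0.05, 49 probe sets (0.197%) differed: 11 were higher (0.0443%) and 38 lower (0.153%). Of these, 10 had both samples above and 35 had both below all 4 neighbours, and 4 overlapped with them. Those 4 were the lower Lhx8, Sox2 and Rhox9 and a higher probe set of array C without a gene name. A mean of neighbours can be passed on the strength of 1 of them. With each comparison adjusted on its own, a rule added after the data were seen, 15 of the 38 lower probe sets differed from 14.5 dpc alone, 13 from 18.5 dpc alone and 10 from both. Of the 11 higher ones, 6 differed from 14.5 dpc alone, 3 from 18.5 dpc alone and 2 from both. Under the stricter test that takes the larger p of the 2 comparisons before adjusting, 2 probe sets passed (0.00806%), Dppa3 and Dppa4, both lower, and none passed as higher. Unadjusted p-values were under 0.05 for 2962 probe sets against the mean and for 698 against each neighbour.

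**Figure D1:**
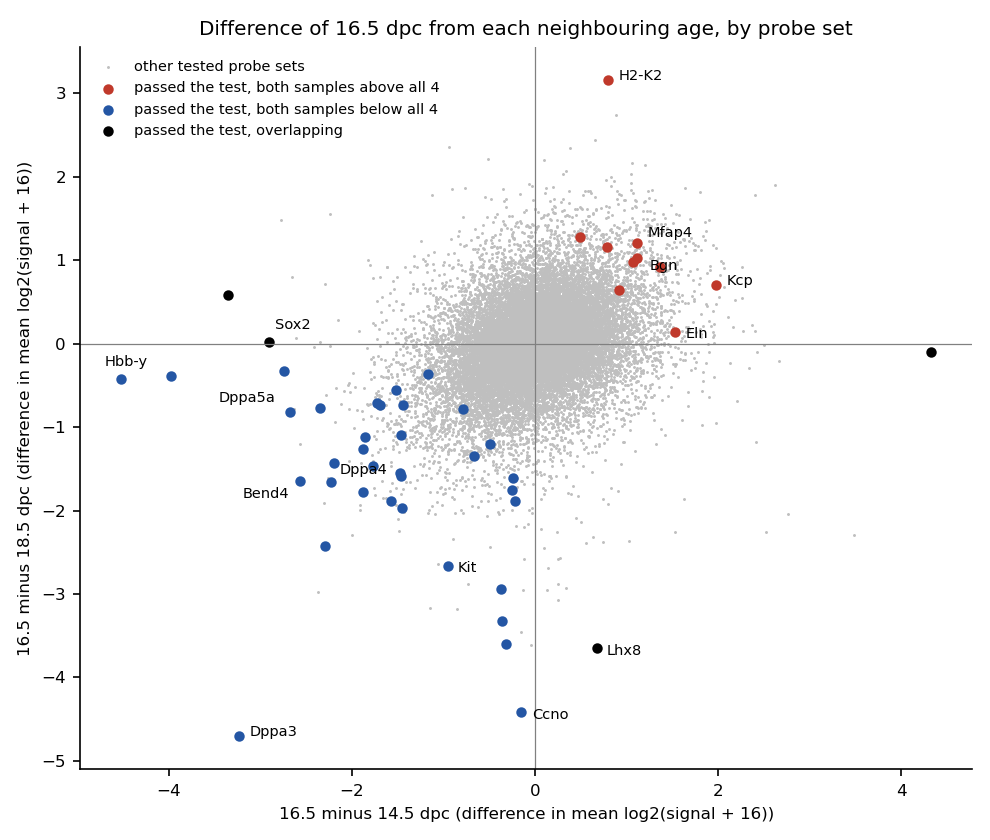
Each point is 1 of 24825 tested probe sets; the x axis is the difference of the 16.5 dpc mean from the 14.5 dpc mean and the y axis its difference from the 18.5 dpc mean, both in log2(signal + 16). Points that passed the test against the mean of both ages (49) are coloured by whether the 16.5 dpc samples lay above (10, red), below (35, blue) or across (4, black) the neighbours; Dppa3 lies farthest towards the lower left, and many blue points lie close to 1 axis.

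Leaving out 1 sample number moved the count of 49. Leaving out replicate 1 or 2 of 11.5 dpc gave 140 and 144, and either replicate of 12.5 dpc gave 26. Leaving out replicate 2 of 14.5 dpc gave 22, and replicate 1 or 2 of 16.5 dpc gave 21 and 14. Leaving out replicate 1 or 2 of 18.5 dpc gave 26 and 19. Across every alternative run, 9 of the 49 kept an adjusted p under 0.05: Dppa3, Dppa4, Dppa5a, Kit, Bend4, 2 probe sets of Hbb-y, the probe set shared by Xlr3a, Xlr3b and Xlr3c, and a probe set of array A without a gene name. All 9 were lower at 16.5 dpc. For 17 of the 49 the call was lost without each of the 8 samples of 12.5 to 18.5 dpc in turn, with adjusted p-values of 0.0514 to 0.321, and kept without either 11.5 dpc sample.

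The rule did not use the 2 earliest ages. Of the 10 higher members that passed, 9 had both 16.5 dpc samples above all 8 samples of the other 4 ages, against 4.52% of all tested probe sets and 49.2% of all 2281 higher members. Of the 35 lower members that passed, 28 were below all 8, against 4.19% of all tested and 46.9% of all 2216 lower members. Members that passed were already chosen for lying beyond 4 of these 8 samples, and for a large difference. That choice favours a high share, so the shares describe their course and are no separate support. No probe set that passed needed a 16.5 dpc array to reach the filter. By contrast 151 of the higher members did, 45 of them with no other array at 50.

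Dppa3 showed the deepest dip. It encodes Stella, a germ cell and oocyte protein that protects the maternal genome from demethylation. Its signal was 479.0 and 346.6 at 14.5 dpc, then 33.2 and 25.3 at 16.5 dpc, then 1238.4 and 1086.2 at 18.5 dpc. The earliest ages, at 322.2 to 730.7, were also far above 16.5 dpc, so Dppa3 was high at 4 ages and low at 1. The difference from the mean of the neighbours was -3.97 ± 0.20 (log2, SE; 15.7-fold lower; limma adjusted p = 2.79e-06). It was 9.40-fold lower than 14.5 dpc and 26.1-fold lower than 18.5 dpc, and the test against each neighbour gave an adjusted p of 0.000175 in limma.

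Dppa4 and Dppa5a, named as developmental pluripotency associated genes, fell beside it. Dppa4, a nuclear chromatin-associated protein, read 241.7 and 200.5 at 14.5 dpc, then 45.8 and 25.2 at 16.5 dpc, then 146.9 and 139.4 at 18.5 dpc. It was 4.68-fold below 14.5 dpc and 3.15-fold below 18.5 dpc, and passed limma against each neighbour (adjusted p = 0.0252). Without either 12.5, 14.5 or 18.5 dpc replicate, or without 16.5 dpc replicate 2, only 1 of these 2 genes passed that stricter test, and without 11.5 dpc replicate 2 the count was 4. Dppa5a, an RNA-binding protein of pluripotent cells, read 588.2 and 502.4, then 66.1 and 76.9, then 131.3 and 145.9. Most of its difference lay on the early side, 6.41-fold below 14.5 dpc and 1.77-fold below 18.5 dpc. Against the mean it was -1.75 ± 0.16 (limma adjusted p = 0.0003), and against 18.5 dpc alone its limma adjusted p was 0.0662.

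The list of primordial germ cell and pluripotency genes had 16 tested members, with a median difference of -0.50 against 0.01 over all genes. Of the 16, 3 were lower at an adjusted p under 0.05 and none was higher, while over all 12589 genes 25 (0.199%) were lower and 6 (0.0477%) higher. The 3 were Dppa4, Dppa5a and Sox2, the pluripotency factor. Sox2 read 187.8 and 215.4 at 14.5 dpc and 12.9 and 13.1 at 16.5 dpc, but 14.8 and 10.5 at 18.5 dpc, so it fell and stayed low. Its adjusted p in limma was 0.00385, and was 0.0524 without 16.5 dpc replicate 1 and 0.0589 without replicate 2. Of the list, 6 members had both 16.5 dpc samples below all neighbours and none above, where 9.53% of all genes were below and 9.78% above. The other 4 of the 6 did not pass. Pou5f1 (Oct4), the core factor of the pluripotency network, read 30.7 and 21.7 at 16.5 dpc (limma adjusted p = 0.0937). Both were below the 102.2 to 121.5 of 14.5 dpc and just below the 35.6 to 37.3 of 18.5 dpc. Neither of the 2 tested Pou5f1 sets passed. Utf1 had an adjusted p of 0.0525 in limma, and Nanog and Zfp42 read below 50 in all 6 samples.

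Genes of the oocyte formed a further group of lower calls, and apart from Dppa3 they differed from 18.5 dpc alone. Of 21 tested members of the oocyte and folliculogenesis list, 5 were lower (Dppa3, Kit, Lhx8, Uchl1 and Tcl1), none was higher, where 0.199% of all genes were lower and 0.0477% higher, and the median difference was -0.82. Kit, the receptor for Kit ligand that oocytes need for survival and growth, read 70.2 and 96.0 at 14.5 dpc, then 37.5 and 32.0 at 16.5 dpc, then 289.7 and 320.5 at 18.5 dpc. The 16.5 dpc values were the lowest of all 5 ages. The difference was -1.81 ± 0.17 (3.50-fold lower; limma adjusted p = 0.0006), with 6.33-fold against 18.5 dpc and 1.94-fold against 14.5 dpc.

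For the other 3 the difference from 18.5 dpc passed and that from 14.5 dpc did not. Lhx8, a transcription factor of primordial oocytes, read 17.7 and 15.2, then 41.8 and 30.1, then 588.7 and 679.1. Its 16.5 dpc samples lay between the 2 ages, so it was no member. Uchl1, a ubiquitin hydrolase abundant in oocytes, read 272.1 and 282.7, then 210.3 and 255.5, then 739.1 and 744.7. Tcl1, an AKT coactivator expressed in oocytes, read 38.1 and 27.8, then 26.8 and 24.7, then 143.6 and 132.2; it was named after its values were seen. Against 14.5 dpc alone the limma adjusted p was 0.261 for Lhx8, 0.492 for Uchl1 and 0.653 for Tcl1. Against the mean, Lhx8 had a limma adjusted p of 0.0316, which became 0.0707 and 0.0800 without a 14.5 dpc replicate and 0.120 and 0.205 without a 16.5 dpc replicate. For Uchl1 the value was 0.0186, and the call was lost without 14.5 dpc replicate 2 (0.0736), 16.5 dpc replicate 1 (0.189) or 2 (0.0589) and 18.5 dpc replicate 1 (0.0866) or 2 (0.104). For Tcl1 it was 0.0415, lost without each of the 8 samples of 12.5 dpc and later (0.0744 to 0.200). Lhx8 also lost its call with log2(signal + 4) (limma adjusted p = 0.150), with no filter (0.0564) and with a replicate block (0.0560). Nobox, a homeobox factor of the follicle oocyte, did not pass on either of its 2 tested sets. On 1 of them it read 37.5 and 31.3 at 16.5 dpc against 601.1 and 597.0 at 18.5 dpc (limma adjusted p = 0.0642). Figla, which drives primordial follicle formation, read 126.9 and 90.3 at 16.5 dpc (limma adjusted p = 0.546). That overlapped with the 76.7 to 90.5 of 14.5 dpc and was below the 245.5 to 305.0 of 18.5 dpc.

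Ddx4 and Dazl, expressed by germ cells through all these stages, had no call on either of their 2 tested probe sets. The values given are those of 1 set each. Ddx4, the germline RNA helicase, read 279.1 and 293.9 at 14.5 dpc, then 274.8 and 294.3 at 16.5 dpc, then 327.1 and 355.4 at 18.5 dpc. Dazl, a germ cell translation regulator, read 1185.1 and 431.1, then 640.3 and 735.5, then 816.5 and 822.2. Both genes overlapped with a neighbouring age, with differences of -0.13 ± 0.20 for Ddx4 and -0.16 ± 0.36 for Dazl (limma adjusted p = 0.837 and 0.895). Of 12 tested germ cell RNA and piRNA genes, none passed, nor did any of their 20 tested probe sets. Over all genes 0.199% passed as lower and 0.0477% as higher. At those shares a list of 12 would seldom hold a call, so its absence says little about these genes. The median difference was -0.17 against 0.01 over all genes, with 9 differences under 0 and 3 above. The summed signal of the 12 genes was 5530 and 5841 at 16.5 dpc. That was near the 5481 to 5647 of 14.5 dpc and far below the 9329 to 10170 of 18.5 dpc.

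Meiotic prophase genes had no call in either direction among 23 tested, nor on any of their 29 tested probe sets. Of all genes, 0.199% passed as lower and 0.0477% as higher, so few calls would be found in any list of this size. The median difference was 0.16. Of the 23, 5 had both 16.5 dpc samples above all neighbours (Spo11, Syce3, Terb1, Msh4 and Msh5) and 1, Trip13, had both below (21.7% and 4.35%, where 9.78% and 9.53% of all genes did). Spo11, the enzyme that makes the meiotic DNA breaks, read 1223.1 and 967.9 at 14.5 dpc, then 1916.2 and 1584.0 at 16.5 dpc, then 906.8 and 1441.7 at 18.5 dpc. The groups did not overlap, but the difference of 0.64 ± 0.22 did not pass (limma adjusted p = 0.294). Msh4 read 172.2 and 212.3 and Msh5 read 61.9 and 56.2 at 16.5 dpc, just above their highest neighbours of 155.3 and 49.9; together the proteins stabilise crossover intermediates, and neither passed (limma adjusted p = 0.489 and 0.363). Trip13, an ATPase that remodels chromosome axis proteins, read 28.0 and 27.1 against 63.5 to 115.3 (-1.24 ± 0.24, limma adjusted p = 0.0642).

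The other meiotic genes followed one-way courses or overlapped. Stra8, which starts meiosis in response to retinoic acid, read 699.2 and 496.4 at 14.5 dpc, then 62.4 and 83.1 at 16.5 dpc, then 23 and 9.7 at 18.5 dpc. Sycp1, of the synaptonemal complex, read 404.1 and 239.1, then 609.9 and 747.5, then 924.9 and 881.9. The 16.5 dpc samples of both genes therefore lay between the neighbours, with limma adjusted p-values of 0.346 for Stra8 and 0.533 for Sycp1. Dmc1, the meiotic strand-exchange recombinase, read 105.4 and 106.9 within the 77.6 to 129.0 of 14.5 dpc. The meiotic cohesin genes Stag3 and Rec8 and the axis gene Sycp3 also overlapped and did not pass (limma adjusted p = 0.294, 0.412 and 0.401). Sycp3 disagreed between its 16.5 dpc samples, at 109.5 and 9.7. Smc1b and Hormad1 were not analysed here.

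Some of the named dips encode proteins of mitosis. Pttg1 (securin), which holds back sister chromatid separation, read 615.2 and 503.1 at 14.5 dpc, then 131.0 and 90.2 at 16.5 dpc, then 376.0 and 274.8 at 18.5 dpc. The groups did not overlap (-1.81 ± 0.25, limma adjusted p = 0.0113, and 0.133 without 16.5 dpc replicate 2). A second Pttg1 probe set did not follow it, at -0.15 with a limma adjusted p of 0.669. Cks2, a cyclin-dependent kinase subunit needed for meiosis in the oocyte, read 778.9 and 750.1, then 453.5 and 494.2, then 1171.2 and 1284.4. Both 16.5 dpc samples were the lowest of the series, 1.59-fold below 14.5 dpc and 2.54-fold below 18.5 dpc. The limma adjusted p of Cks2 was 0.00385, rising to 0.0841 without 16.5 dpc replicate 1 and 0.0524 without replicate 2. Haus3, a subunit of the augmin complex of the spindle, read 244.9 and 245.3 against 394.2 to 478.5 in the neighbours, an even dip of 1.72-fold and 1.73-fold. Haus3 was as low at 12.5 dpc, at 274.9 and 238.3. Its limma adjusted p of 0.0461 rose to between 0.0764 and 0.232 without any 1 sample of 12.5 dpc or later.

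Wdr76, a WD-repeat protein that binds DNA damage sites and chromatin, read 621.0 and 808.2 at 14.5 dpc, then 288.7 and 210.8 at 16.5 dpc, then 512.8 and 575.2 at 18.5 dpc. The dip was 2.76-fold against 14.5 dpc and 2.13-fold against 18.5 dpc (limma adjusted p = 0.0141). The call was lost without 14.5 dpc replicate 2 (0.0541), 16.5 dpc replicate 2 (0.172) or 18.5 dpc replicate 2 (0.0921). Over all genes, 0.199% passed as lower and 0.0477% as higher. In the list of cell cycle and DNA replication genes, none of 48 tested passed and the median was -0.14. Both samples were below for 7 (14.6%, where 9.53% of all genes were) and above for 2 (4.17%, where 9.78% were), the D-type cyclin genes Ccnd2 and Ccnd3. Ccnd2 read 236.9 and 461.6 against 96.7 to 168.4 (limma adjusted p = 0.237).

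Bend4, a BEN-domain protein, was low at 16.5 dpc alone, and was named after its values were seen. It read 166.8 and 217.8, then 17.0 and 21.1, then 99.0 and 88.0 over the 3 ages, with 108.8 to 143.5 at the earliest ages. The dip was 5.91-fold against 14.5 dpc and 3.13-fold against 18.5 dpc (-2.10 ± 0.24, limma adjusted p = 0.00182). Nkain1, a protein that interacts with the sodium pump, was also named after its values were seen, because 2 of its probe sets, on arrays A and B, passed and all 4 tested had both samples below. The set on array A read 57.9 and 67.2, then 5.0 and 6.3, then 30.1 and 32.2. The set on array B read 80.6 and 127.3, then 20.6 and 16.5, then 101.5 and 61.8. In both, the 16.5 dpc samples were below every other sample of the series. Their limma adjusted p-values were 0.0404 and 0.0415, and rose to as much as 0.207 when 1 sample was left out.

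The Xlr3, Trap1a and Rhox genes were also among the lower calls. The Xlr3 genes encode nuclear proteins related to a synaptonemal complex protein. Their shared probe set, which cannot tell Xlr3a, Xlr3b and Xlr3c apart, read 529.1 and 445.5 at 14.5 dpc, then 104.2 and 137.5 at 16.5 dpc, then 318.2 and 303.5 at 18.5 dpc. The 16.5 dpc values were close to the 117.2 to 136.7 of the earliest ages, so the signal was high at 14.5 and 18.5 dpc and low at the other 3 ages (-1.58 ± 0.15, limma adjusted p = 0.0006). Trap1a, a tumour rejection antigen gene, read 452.3 and 347.4, then 92.5 and 126.6, then 187.4 and 186.1 (limma adjusted p = 0.00893, and 0.133 without 16.5 dpc replicate 1). Trap1a was as low at 11.5 dpc, at 125.9 and 114.7. The homeobox genes Rhox5 and Rhox9 fell after 14.5 dpc. Rhox5 read 952.6 and 677.2, then 104.8 and 107.6, then 147.2 and 127.5, and was 6.71-fold below 14.5 dpc but 1.25-fold below 18.5 dpc. Rhox9 read 2837.9 and 4301.8, then 424.4 and 251.8, then 191.1 and 236.7, so its 16.5 dpc samples were not below 18.5 dpc. The limma adjusted p was 0.00385 for Rhox5, becoming 0.0524 and 0.0589 without a 16.5 dpc replicate. For Rhox9 it was 0.0402, and without 1 of 6 samples (either 12.5 or 18.5 dpc replicate, or replicate 2 of 14.5 or 16.5 dpc) it rose to between 0.0720 and 0.235.

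**Figure D2:**
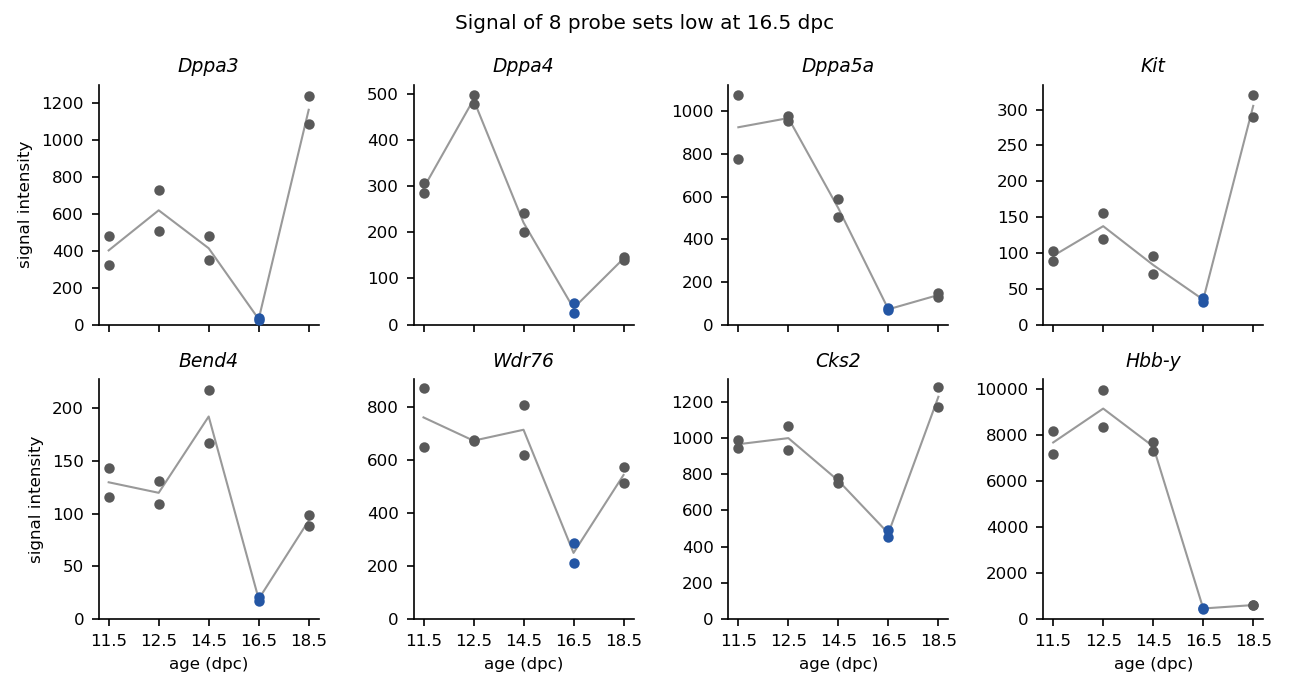
Signal intensity (y axis, linear, from 0) at the 5 ages (x axis, dpc) for 8 probe sets lower at 16.5 dpc; points are the 2 samples of an age, blue at 16.5 dpc, and the line joins the means. Dppa3, Kit and Cks2 are higher again at 18.5 dpc than at any earlier age, Bend4 and Wdr76 return part of the way, and Dppa5a and Hbb-y stay low.

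Hbb-y, the embryonic beta-like globin of primitive red cells, passed on both of its probe sets. One read 7712.1 and 7288.3 at 14.5 dpc, then 486.9 and 435.0 at 16.5 dpc, then 617.8 and 600.0 at 18.5 dpc. It was 15.8-fold below 14.5 dpc and 1.31-fold below 18.5 dpc (limma adjusted p = 4.86e-06 against the mean, 0.272 against 18.5 dpc alone). The globins are near-identical in parts, and these sets may share signal. The other embryonic globins Hbb-bh1 and Hba-x did not pass (limma adjusted p = 0.0511 and 0.0579), and the adult Hba-a1 read 10742.6 and 11660.0 between 7576.1 to 7704.6 and 15254.8 to 15698.6. Of 12 erythroid genes tested, Hbb-y alone passed, as lower, where 0.199% of all genes were lower. The median was -0.23, and the summed signal was 18743 and 20872 at 16.5 dpc against 22508 to 25177 in the neighbours. The part of blood content in the other results was not tested.

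Genes that were low until 18.5 dpc formed another set of lower calls. Ccno, an atypical cyclin, read 4.6 and 5.0, against 7.5 and 6.7 before and 429.2 and 427.8 after. Esrp1, an epithelial splicing regulator, read 18.7 and 17.1, against 24.7 and 30.5 before and 297.0 and 349.8 after. The Notch ligand gene Jag2 read 8.1 and 6.6, against 18.4 and 10.4 before and 158.7 and 168.8 after. For all 3 the samples of 16.5 dpc were below those of 14.5 dpc by an amount that did not pass on its own (limma adjusted p of 0.902, 0.546 and 0.637), at signals under 50. Against the mean the limma adjusted p was 0.0316 for Ccno, 0.00385 for Esrp1 and 0.0447 for Jag2. Without a 16.5 dpc replicate these became 0.164 and 0.159, 0.0518 and 0.0589, and 0.186 and 0.200. Ccno and Jag2 also lost the call without either 12.5 or 14.5 dpc replicate (0.0577 to 0.0894). Without an 18.5 dpc replicate too few arrays reached the filter to test Ccno, Jag2 or Lhx8. With log2(signal + 4) the limma adjusted p was 0.0793 for Ccno and 0.114 for Jag2. A filter at 100 gave 0.101 and 0.0831, and a replicate block 0.0560 and 0.0617. Esrp1 kept its call in these settings. Ccno and Esrp1 were named after their values were seen. In the Notch list Jag2 was the only call among 19 genes, where 0.199% of all genes were lower.

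The remaining named dips rested on probe sets that other sets of the same gene did not follow, or on changes against 1 age. Prxl2b, a prostamide synthase, read 147.7 and 297.5 against 533.2 to 946.4, while its 2 other sets differed by -0.30 and 0.02. Polr3e, a subunit of RNA polymerase III, read 59.9 and 51.5 against 177.2 to 211.0, while its 2 other sets differed by -0.03 and 0.22. Gpatch1, a G-patch protein, read 3054.0 and 2354.2 against 3255.1 to 16291.3, and its other set was higher at 16.5 dpc by 0.74. Dmtn, a membrane skeleton protein that bundles actin, read 158.4 and 170.2 against 280.2 to 599.4, and its other set differed by 0.44. Fdps, which makes farnesyl diphosphate for cholesterol synthesis, read 320.2 and 259.8 against 359.6 to 677.2, and its other set gave -0.56. These 5 passed with limma adjusted p-values of 0.0415, 0.0495, 0.0402, 0.0402 and 0.0461. Prxl2b, Polr3e, Dmtn and Fdps lost the call without each of the 8 samples of 12.5 dpc or later. Gpatch1 lost it without 6 of them, those other than replicate 1 of 14.5 and of 18.5 dpc. The highest adjusted p of each gene was between 0.197 and 0.280.

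The other lower calls, named after their values were seen, completed the set of 38. Elavl2, an RNA-binding protein of neurons and oocytes, read 304.7 and 278.7, then 223.3 and 260.4, then 844.1 and 852.5, so its difference lay with 18.5 dpc (3.36-fold). Cyct, the testis form of cytochrome c, read 118.2 and 108.9, then 29.1 and 29.3, then 46.9 and 54.4, so its difference lay with 14.5 dpc (2.86-fold). The set shared by the zinc finger genes Zfp984 and Gm13212 read 445.0 and 391.8, then 140.8 and 145.5, then 239.1 and 256.9. Their limma adjusted p-values were 0.0257, 0.0415 and 0.0186. Elavl2 and Cyct lost the call without each of the 8 samples of 12.5 dpc or later (0.0577 to 0.197). The shared set lost it without replicate 1 of 14.5 dpc (0.0522), replicate 1 or 2 of 16.5 dpc (0.144 and 0.128) and replicate 1 or 2 of 18.5 dpc (0.0660 and 0.104). Of the 49, 7 had no gene name in the annotation, and 6 of these were lower. The strongest of the 6 read 252.8 and 242.0, then 218.8 and 174.6, then 2849.6 and 2293.6, a course like that of the oocyte genes low until 18.5 dpc (limma adjusted p = 0.000166).

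On the higher side, the 2 probe sets that differed from both ages, each comparison adjusted on its own, were Bgn and Mfap4, of the extracellular matrix. By fold against the mean of the neighbours, the unnamed set of array C (4.34-fold), H2-K2 (3.95-fold) and Kcp (2.53-fold) were above them. Bgn, biglycan, a small leucine-rich proteoglycan that binds collagen, read 268.3 and 288.0 at 14.5 dpc, then 714.5 and 535.3 at 16.5 dpc, then 285.7 and 303.0 at 18.5 dpc. The earliest ages were at 184.1 to 281.6, so both 16.5 dpc samples were above every other sample of the series. The difference was 1.07 ± 0.17 (2.10-fold higher; limma adjusted p = 0.0315), 2.16-fold above 14.5 dpc and 2.05-fold above 18.5 dpc. All 3 of its tested probe sets had both samples above. Mfap4, a microfibril protein that binds elastin and collagen, measured here by a set of the family type, read 64.2 and 53.4, then 167.6 and 125.6, then 58.3 and 50.1. It peaked in the same way, 2.16-fold above 14.5 dpc and 2.30-fold above 18.5 dpc (limma adjusted p = 0.0347).

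Eln, which encodes elastin, had another course. It read 282.8 and 302.3 at 14.5 dpc, then 904.3 and 842.9 at 16.5 dpc, then 797.7 and 784.0 at 18.5 dpc. It rose 2.88-fold from 14.5 dpc and was 1.10-fold above 18.5 dpc, a margin that did not pass on its own (limma adjusted p = 0.0405 against the mean, 0.769 against 18.5 dpc). A second Eln probe set differed by 0.20 and did not pass. The calls of Bgn, Mfap4 and Eln were each lost without any 1 of the 8 samples of 12.5 dpc or later, with adjusted p-values of 0.0589 to 0.244, 0.0606 to 0.265 and 0.0749 to 0.246.

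Of 29 tested stroma and matrix genes, 13 had both 16.5 dpc samples above all neighbours and none had both below. The shares over all genes were 9.78% and 9.53%. Of the 29, 2 passed as higher, Mfap4 and Eln, where 0.0477% of all genes did. None passed as lower, where 0.199% of all genes did. Bgn was represented in the list by another probe set, which did not pass (1.14 ± 0.27, limma adjusted p = 0.129). The median difference was 0.47 against 0.01 over all genes. Among the 13, Col1a1, the main fibrillar collagen, read 365.0 and 504.6 at 14.5 dpc, then 1775.0 and 951.0 at 16.5 dpc, then 720.6 and 834.5 at 18.5 dpc. Pdgfra, a receptor of stromal cells, read 767.4 and 492.5 against 286.2 to 385.6. In both genes replicate 1 of 16.5 dpc was far above replicate 2, and neither passed (limma adjusted p = 0.120 and 0.0764). The summed signal of the list was 18378 and 13149 at 16.5 dpc against 9788 to 11679 in the neighbours. The part of stromal cell content in these results was not tested.

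**Figure D3:**
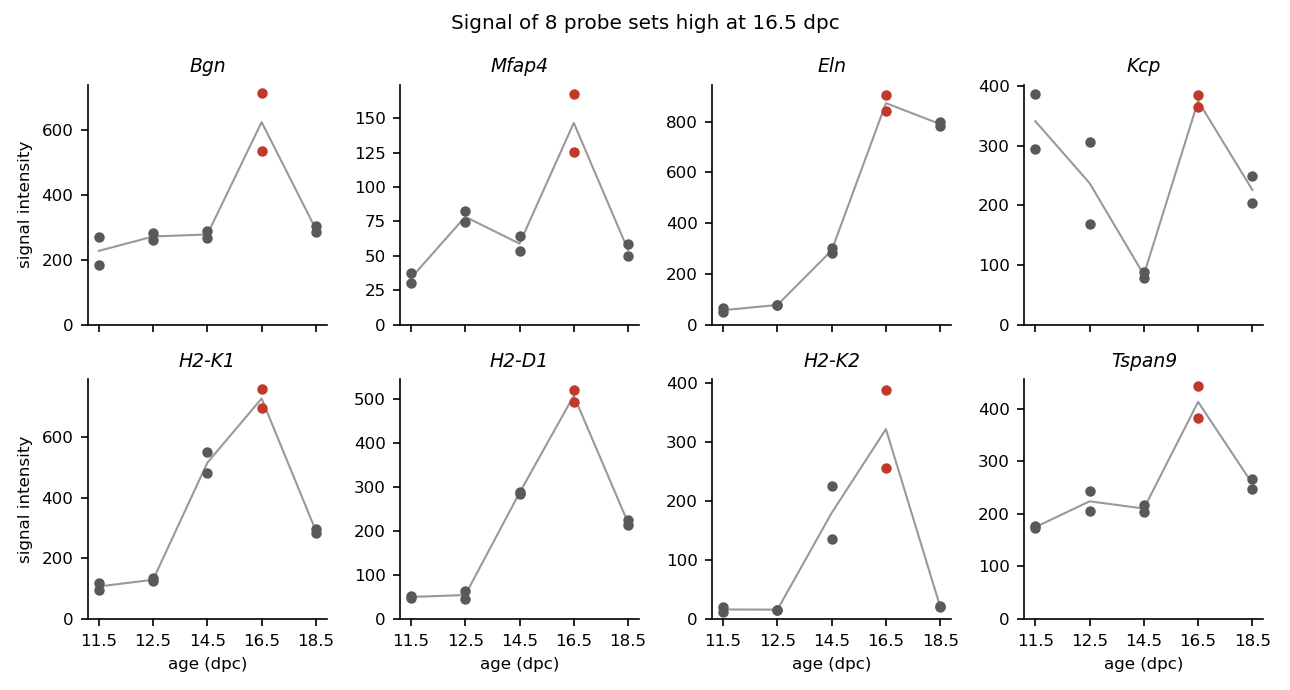
Signal intensity (y axis, linear, from 0) at the 5 ages (x axis, dpc) for 8 probe sets higher at 16.5 dpc; points are the 2 samples of an age, red at 16.5 dpc, and the line joins the means. Bgn, Mfap4 and Tspan9 stand above the samples of all other ages, and Kcp returns to its earliest level after a low at 14.5 dpc. The class I probe sets climb from 12.5 to 16.5 dpc before dropping at 18.5 dpc.

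Probe sets annotated to 3 genes for the heavy chain of MHC class I, which presents peptides at the cell surface, were highest at 16.5 dpc. H2-K1 read 481.1 and 548.9 at 14.5 dpc, then 695.6 and 757.6 at 16.5 dpc, then 296.3 and 284.7 at 18.5 dpc, with 95.6 to 135.2 at the earliest ages. H2-D1 read 288.9 and 283.9, then 492.8 and 520.8, then 213.4 and 223.8. H2-K2 read 224.8 and 135.1, then 255.9 and 388.0, then 21.9 and 20.1. None of the 3 overlapped with a neighbouring age. The limma adjusted p was 0.0315 for H2-K1, 0.0245 for H2-D1 and 0.00385 for H2-K2. Most of the difference was against 18.5 dpc, 2.42-fold for H2-K1, 2.23-fold for H2-D1 and 8.96-fold for H2-K2, and against 14.5 dpc alone the limma adjusted p-values were 0.167, 0.0546 and 0.188. These genes are close copies of each other and their probe sets are of the family type, so which of them gave the signal is uncertain. An H2-K1 probe set that is not of this type differed by 0.11 (limma adjusted p = 0.895).

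H2-K2 lost its call without 16.5 dpc replicate 2 alone (0.113). H2-D1 lost it without either 14.5, 16.5 or 18.5 dpc replicate (0.0606 to 0.173), and H2-K1 without each of the 8 samples of 12.5 dpc or later (0.0616 to 0.205). In the interferon and MHC class I list, 2 of 16 genes passed as higher and none as lower, where 0.0477% and 0.199% of all genes did. The median was 0.30, and 4 (25%) had both samples above, where 9.78% of all genes did. B2m, the light chain shared by class I molecules, read 341.1 and 247.6, then 486.4 and 421.8, then 342.5 and 324.6, and did not pass (limma adjusted p = 0.364). The interferon-induced genes Isg15, Irf7, Bst2, Gbp2 and Stat2 had differences of 0.11 to 0.32 and overlapped with the neighbours.

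The promoters of H2-D1 and H2-K1 are shown because a family-type probe set annotated to each passed as higher. Which gene gave the signal is uncertain, and an H2-K1 set not of this type did not pass. The windows run from 250 bases before to 50 bases after the annotated start, from RefSeq on GRCm38.p6; H2-D1 is at chr17:35262844-35263143 on the + strand and H2-K1 at chr17:34000298-34000597 on the - strand. Capitals mark overlapping matches to the NF-kappaB consensus, and the letters TATAAA. This second motif begins 26 bases before the annotated start of H2-D1 but 35 bases after that of H2-K1, so in H2-K1 it is not in the place of a TATA box for the annotated start.
H2-D1: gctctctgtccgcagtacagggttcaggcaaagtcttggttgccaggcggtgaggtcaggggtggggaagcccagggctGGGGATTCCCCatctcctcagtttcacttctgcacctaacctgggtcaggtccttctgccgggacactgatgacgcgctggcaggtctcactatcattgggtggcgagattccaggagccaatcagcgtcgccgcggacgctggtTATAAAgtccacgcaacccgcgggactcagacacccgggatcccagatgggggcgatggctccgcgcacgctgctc
H2-K1: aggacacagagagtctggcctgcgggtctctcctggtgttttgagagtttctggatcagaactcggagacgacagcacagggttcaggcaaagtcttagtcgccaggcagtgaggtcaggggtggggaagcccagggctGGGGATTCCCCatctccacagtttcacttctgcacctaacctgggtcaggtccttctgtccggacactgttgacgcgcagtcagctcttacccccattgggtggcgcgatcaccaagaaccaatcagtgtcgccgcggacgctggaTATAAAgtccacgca
The best-scoring local alignment of the 2 windows, with gaps allowed, ran over 228 columns, of which 206 (90.4%) were identical. Searched on both strands, the NF-kappaB consensus was in 8.46% of 32851 promoter windows and TATAAA in 13.6%. A match is a description of the letters. H2-K2, Bgn and the other peaks are described without a promoter here.

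Outside these groups, the named peaks were a mixed set. Kcp, a secreted protein that modulates BMP and TGF-beta signals, read 88.7 and 78.3 at 14.5 dpc, then 365.2 and 384.7 at 16.5 dpc, then 203.2 and 248.6 at 18.5 dpc. Its earliest levels of 167.9 to 387.2 overlapped with 16.5 dpc, so the pattern was a low at 14.5 dpc with partial decline later (1.34 ± 0.23, limma adjusted p = 0.0400). The call was lost without either 14.5, 16.5 or 18.5 dpc replicate (0.0614 to 0.208). Tspan9, a membrane tetraspanin, read 216.5 and 203.6, then 442.6 and 382.9, then 266.7 and 247.8, above the other ages throughout (1.72-fold; limma adjusted p = 0.0477). Its call was lost without any 1 sample of 12.5 dpc or later (0.0758 to 0.290).

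Kdm2a, a histone H3 demethylase, read 275.8 and 261.9, then 613.8 and 549.3, then 350.7 and 234.9 on 1 probe set, while its 2 others differed by -0.31 and -0.50. Bfar, an apoptosis regulator of the endoplasmic reticulum, read 176.8 and 133.3, then 497.6 and 352.4, then 196.7 and 233.4, and 3 of its 6 sets had both samples above. Their limma adjusted p-values were 0.0495 and 0.0461. Without 16.5 dpc replicate 1 they were 0.287 and 0.321, and both also lost the call without replicate 2, either 12.5 or 14.5 dpc replicate, or 18.5 dpc replicate 2. Bfar lost it without 18.5 dpc replicate 1 too. Baiap2, an actin-organising scaffold at 226.3 and 334.8 against 32.6 to 71.2, and Tmem86a, a lysoplasmalogenase at 747.3 and 587.3 against 254.8 to 491.9, filled the list of 12 peaks but did not pass (limma adjusted p = 0.0506 and 0.0511). A second Baiap2 set differed by 0.11. The probe set of array C without a gene name had the largest rise from 14.5 dpc, from 12.4 and 30.2 to 555.8 and 910.0, and remained at 824.3 and 702.8 at 18.5 dpc, so it was no member.

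The line between called and not called ran through close values. Kdm2a and Polr3e, both at an adjusted p of 0.0495, were the last inside it. Gm1965, Add2, Prkag2 and Baiap2, all at 0.0506, were the first outside. The differences from the mean of the neighbours were 1.02 for Kdm2a and -1.51 for Polr3e inside, and -1.78 for Gm1965, -1.73 for Add2, -1.03 for Prkag2 and 2.10 for Baiap2 outside.

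Among 25 tested pregranulosa and supporting cell genes there was no call, on any of their 38 tested probe sets. The shares of all genes that passed were 0.199% as lower and 0.0477% as higher. Of 25 tested, 8 (32.0%) had both 16.5 dpc samples above and none below, where 9.78% and 9.53% of all genes did, and the median difference was 0.37. Fst, follistatin, which binds activin, read 202.5 and 118.5 at 14.5 dpc, then 317.2 and 443.6 at 16.5 dpc, then 234.8 and 216.0 at 18.5 dpc (0.94 ± 0.31, limma adjusted p = 0.264), and a second Fst set differed by 0.03. Inha, the inhibin alpha subunit, read 183.9 and 115.3 against 66.0 to 100.7. Kitl, the ligand of Kit, read 1586.1 and 1733.2 against 1380.6 to 1550.4, a margin of 0.18 ± 0.13 with no overlap. Foxl2 read 792.5 and 858.4 against 327.7 to 793.3, and Wnt4, which promotes ovarian fate, read 1541.0 and 1567.8 within the 851.6 to 1673.0 of the neighbours. Neither Foxl2, Kitl nor Wnt4 passed (limma adjusted p = 0.332, 0.611 and 0.562). The summed signal of this list was 22570 and 25284 at 16.5 dpc against 17670 to 21163 in the neighbours; the part of cell content in these values was not tested.

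**Figure D4:**
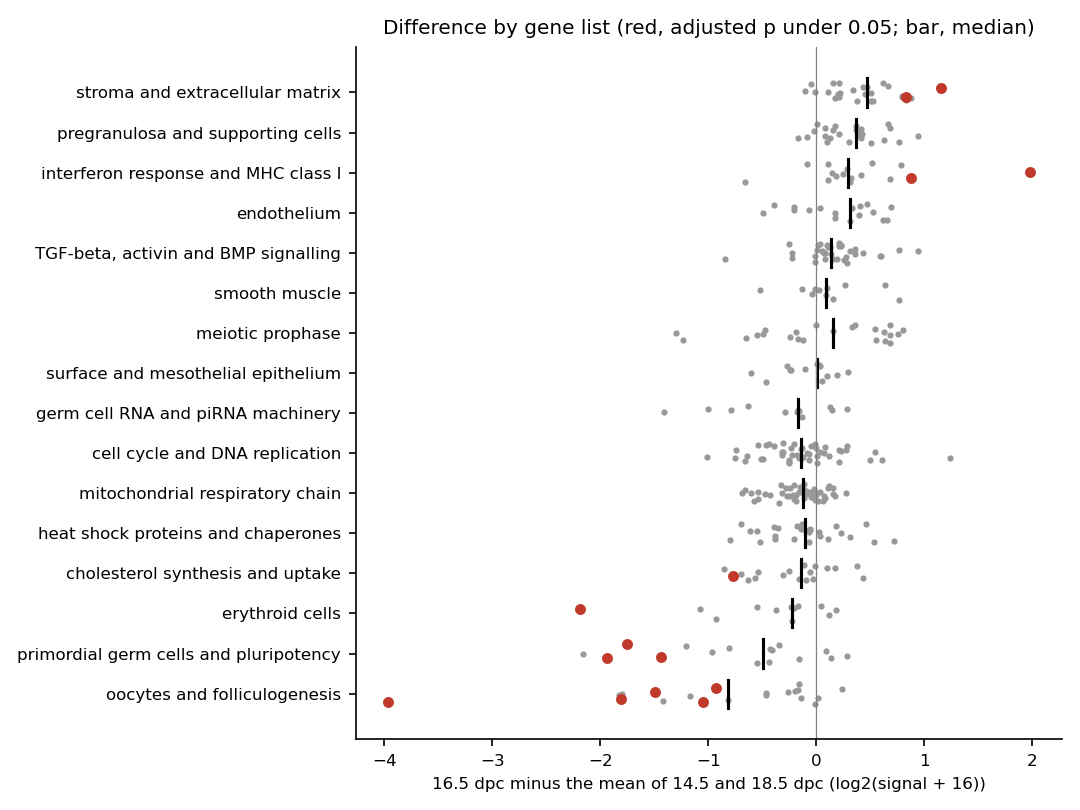
Each point is 1 gene; the x axis is the difference of 16.5 dpc from the mean of 14.5 and 18.5 dpc in log2(signal + 16), the rows are 16 of the 29 gene lists, red points passed at an adjusted p under 0.05 and the black bar is the list's median. The matrix list has its median at 0.47, the oocyte list at -0.82 and the primordial germ cell and pluripotency list at -0.50. The pregranulosa, endothelial and interferon lists have medians of 0.37, 0.31 and 0.30. Medians of the other lists drawn run from -0.23 (erythroid) to 0.16 (meiotic prophase). The liver and gut list (-1.16) and the testis list (-0.60) are among those not drawn.

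In 4 lists of housekeeping functions Fdps was the only call, as lower, where 0.199% of all genes were lower. The shares of all genes with both samples below or above were 9.53% and 9.78%. Of 47 mitochondrial respiratory chain genes, 11 (23.4%) had both samples below and 2 above, with a median of -0.12 and 36 differences under 0; Uqcrb, of complex III, read 625.1 and 774.9 against 873.2 to 1371.8 (limma adjusted p = 0.153). Of 27 chaperone genes, 8 (29.6%) were below and 3 above, with a median of -0.10; Hsph1 read 329.7 and 321.1 against 429.4 to 749.5 (limma adjusted p = 0.0775). Of 27 ribosomal protein genes, 3 (11.1%) were below and 1 above, with a median of -0.07. Of 18 cholesterol genes, 5 (27.8%) were below and 2 above, with a median of -0.14. None of 26 genes of the DNA damage list passed, where 0.199% of all genes were lower and 0.0477% higher. In that list Atr, a checkpoint kinase also active on unsynapsed meiotic chromosomes, read 1359.8 and 1321.3 against 549.3 to 795.2 (limma adjusted p = 0.0525). Atr was named after its values were seen.

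Markers of other cells were measured in the same samples. The 17 endothelial genes had a median of 0.31 and no call, with summed signals of 1984 and 2052 at 16.5 dpc against 1703 to 1965. The 12 leukocyte genes had a median of 0.03, with sums of 1385 and 1612 against 1269 to 1472. The 8 testis genes had a median of -0.60 and sums of 1594 and 1779 against 1950 to 3286. Rhox5 was their only call, as lower, where 0.199% of all genes were lower. The 4 liver and gut genes had a median of -1.16 and no call. Among them Alb, albumin, read 127.0 and 165.7, against 147.6 and 195.2 before and 723.6 and 706.5 after. No adrenal, kidney and duct, neural or skeletal muscle list had a call, where 0.199% of all genes were lower and 0.0477% higher. The part of these cells in the results was not tested.

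The same comparison was made for the 2 other ages that have neighbours on either side. At 12.5 dpc against 11.5 and 14.5 dpc, 95 probe sets passed (0.383%), 51 higher (0.205%) and 44 lower (0.177%). At 14.5 dpc against 12.5 and 16.5 dpc, 100 passed (0.403%), 66 higher (0.266%) and 34 lower (0.137%). These comparisons share samples and the ages are not evenly spaced, so the counts are only set side by side. The test against each neighbour passed 1 probe set (0.00403%) at 12.5 dpc and 3 (0.0121%) at 14.5 dpc.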

How the data were processed

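The 30 arrays held 36701 probe sets besides controls. Each array's deposited column holds signal intensities that the authors scaled to a mean of 125, per the labels. Software: not given in the sources used here. Detection calls were not used. Signals were analysed as log2(signal + 16), and probe sets with a signal of 50 on at least 2 of the 10 arrays of a type were tested. limma 3.58.1 in R 4.3.3 (lmFit, eBayes with an intensity trend) fitted the 5 ages per array type with 5 residual degrees of freedom, with Benjamini-Hochberg adjustment across the 3 types at once. Errors are model standard errors, and folds are on the log2(signal + 16) scale, which understates changes at low signal. Precision is limited by the number of arrays. Each gene stands in its lists as the tested set of highest mean log2 signal. Named genes were the 12 peaks and 12 dips with the largest smaller difference among called members whose mean signal reached 100 (16.5 dpc for a peak, each neighbouring age for a dip). Free places went to the lowest p, and called list members (up to 4 per list) and a fixed set of ovarian genes were added. The 29 gene lists matched 775 entries as written and 4 by synonym, and 2 were unmatched. The members and lists were chosen with earlier results of these data known. Alternatives covered the pseudocount, filter, scaling, intensity trend, arrays used, replicate block and each sample left out. Simulated data were used to test the scripts. Deviations of same-numbered samples correlated at -0.16 to 0.22 on array type A, and at most at 0.098 on B and 0.070 on C. Numbers were not treated as pairs, and the count with a replicate block is given below.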

Additional observations from a re-analysis of the deposited data

How the results depend on the processing

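The 49 probe sets against the mean of the neighbours became 78 with log2(signal + 64), 22 higher and 56 lower, and 77 after quantile normalization, 18 and 59. They became 28 with a replicate block, of which 27 were among the 49, although of 10 same-numbered pairs of ages only 1 correlated above 0.1 on any array type. Without 1 sample the count ran from 14 to 144. The 2 probe sets that passed against each neighbour became 1 with log2(signal + 64), with no filter, with no intensity trend and with only the 6 arrays of the 3 ages, and ran from 1 to 4 without 1 sample. They became 12 when each comparison was adjusted on its own, 2 higher (Mfap4, Bgn) and 10 lower, a rule chosen after seeing the data. The 4497 members ran from 5981 to 10088 without 1 sample of the 3 ages, fewer samples being easier to exceed. At 12.5 dpc the 95 became 25 with no filter, 30 with no intensity trend and 12 with only 6 arrays, and ran from 0 to 694 without 1 sample. At 14.5 dpc the 100 became 47, 29 and 181, and ran from 25 to 345. The causes were not tested. Of 1008 alternative values of the 49 called probe sets, 687 stayed past the threshold, 321 did not and none changed direction. Dazl, not called at -0.16, ranged from -0.51 to 0.20 without 1 sample, the latter without 14.5 dpc replicate 1. Signals under 50, as for Dppa3 at 16.5 dpc, have no detection call, so the depth of such dips is limited by background.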
